A study of Mus musculus with 14 samples.

Results

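Iron, heme and ceruloplasmin handling was followed in 10 genes, in kidneys of mice that had received protein cages by vein. The genes were Fth1 and Ftl1, which encode the heavy and light chains of ferritin, the transferrin receptor gene Tfrc, the metalloreductase gene Steap4, the iron exporter gene Slc40a1 (ferroportin), the ferroxidase gene Cp (ceruloplasmin), the iron regulatory protein genes Aco1 and Ireb2, the ferrochelatase gene Fech and the heme oxygenase gene Hmox1. They were chosen by symbol for their known roles, because the injected cages were taken to share the ferritin-like fold. Earlier results of these data were known when they were chosen. All 10 symbols were among the 24421 gene rows of the count table, and all 10 were among the 14854 genes with enough counts to be tested.

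The mice were male C57BL/6J and received vehicle, Dps at 18 mg/kg or MnDps at 18 mg/kg. The 14 libraries of kidney messenger RNA fell into 5 groups: vehicle (3 libraries), Dps with 3 libraries at each of 4 h and 24 h, and MnDps with 3 at 4 h and 2 at 24 h. The labels name no time point for vehicle, do not spell out Dps or MnDps, and do not say how the proteins differ. They also do not say that libraries came from separate animals, so p-values measure only the spread between these libraries, which may be technical. Replicate numbers are names in accession order and pair nothing across groups. Total counts ran from 15097093 to 42074942 per library, with 3 libraries above 30000000 (vehicle replicate 3, and the first 2 replicates of the Dps group at 4 h). The 10 proximal tubule markers, all tested, were present in every library and summed to at least 45653 CPM.

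Cells take up iron bound to transferrin through the transferrin receptor, reduce it in endosomes, use it for heme and iron-sulfur clusters, store the excess in ferritin and release it through ferroportin, with ceruloplasmin oxidising it on the way out. The iron regulatory proteins, encoded by Aco1 and Ireb2, bind a stem-loop called the iron responsive element (IRE) when iron is scarce. At the front of ferritin and ferroportin messages this binding blocks translation, and behind the coding part of the transferrin receptor message it slows decay. Part of the iron response is therefore a change of translation, which read counts do not measure. The proximal tubule reclaims filtered transferrin, iron and heme, and heme oxygenase and ferritin are known as protective genes of this segment. Ceruloplasmin, Steap4, haptoglobin and lipocalin 2 are known to be induced by inflammation in several tissues.

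The IREs of the members are shown because they divide the genes into those read for translation and the one read for stability. The pattern searched was a C, any 5 bases, CAGTG, any base but G, and 5 bases that pair with the first 5 (Watson-Crick or G with T), on the sense strand of GENCODE M21 transcripts. Capitals mark the hexaloop and lower case the flanking stem. Fth1, Ftl1 and Slc40a1 each held 1 match in the 5′ UTR.
Fth1: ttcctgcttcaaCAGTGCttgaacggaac
Ftl1: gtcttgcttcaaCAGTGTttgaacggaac
Slc40a1: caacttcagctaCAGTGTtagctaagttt
Tfrc held 4 matches in its 3′ UTR.
Tfrc site 1: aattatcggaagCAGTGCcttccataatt
Tfrc site 2: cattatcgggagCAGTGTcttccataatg
Tfrc site 3: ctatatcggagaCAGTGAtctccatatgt
Tfrc site 4: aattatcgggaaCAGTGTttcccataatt
The match began at base 93 of 224 in the 5′ UTR of Fth1, at base 84 of 253 in that of Ftl1 and at base 96 of 319 in that of Slc40a1. The 4 Tfrc matches began at bases 889, 1268, 1333 and 1380 of a 3′ UTR of 2458 bases. The same pattern was found in the 5′ UTR of 0.11% of 20899 genes and in the 3′ UTR of 0.476% of 21028 genes, and UTRs differ in length. No match was found in the UTRs of the other 6 members. A match is a description of letters and not a measured binding site.

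In the vehicle kidneys the ferritin chains were by far the most abundant of these messages. Per kilobase of the principal transcript, Fth1 stood at 5155 CPM, the normalised read count of the scaled library (4916 to 5568 over the 3 libraries), and Ftl1 at 2497 (2237 to 2908). Aco1 followed at 132 (123 to 141). Hmox1 at 27.4 (16.9 to 36.4) overlapped in its range with both Fech at 25.3 (23.8 to 26.9) and Ireb2 at 22.5 (20.5 to 23.6), which did not overlap each other. The ranges overlapped between Slc40a1 at 18.9 (17.6 to 20.3) and Tfrc at 18.6 (16.98 to 20.6). Cp stood at 9.02 (7.93 to 10.8) and Steap4 was lowest at 0.650 (0.505 to 0.745). These are levels per length and were not tested between genes. All later levels are CPM of the scaled library, without division by length.

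Steap4, Cp and Hmox1 rose at 4 h after either protein, by 6.43-fold, 2.37-fold and 1.91-fold after Dps and by 5.23-fold, 2.42-fold and 2.25-fold after MnDps. The other 7 members did not pass the test after Dps at 4 h. After MnDps at 4 h both ferritin chains were also called higher, and Tfrc, Ireb2 and Fech lower. With a correction for transcript length and base composition, described below, the Steap4, Cp and Hmox1 calls held and the ferritin, Ireb2 and Fech calls were lost, with Fth1 and Ireb2 changing sign when the principal transcript was used, which also ended the Tfrc call. At 24 h no member was called higher after Dps, and Ftl1 was the 1 member called higher after MnDps. Bulk tissue cannot tell fewer cells of a type from less RNA per cell.

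**Figure D1:**
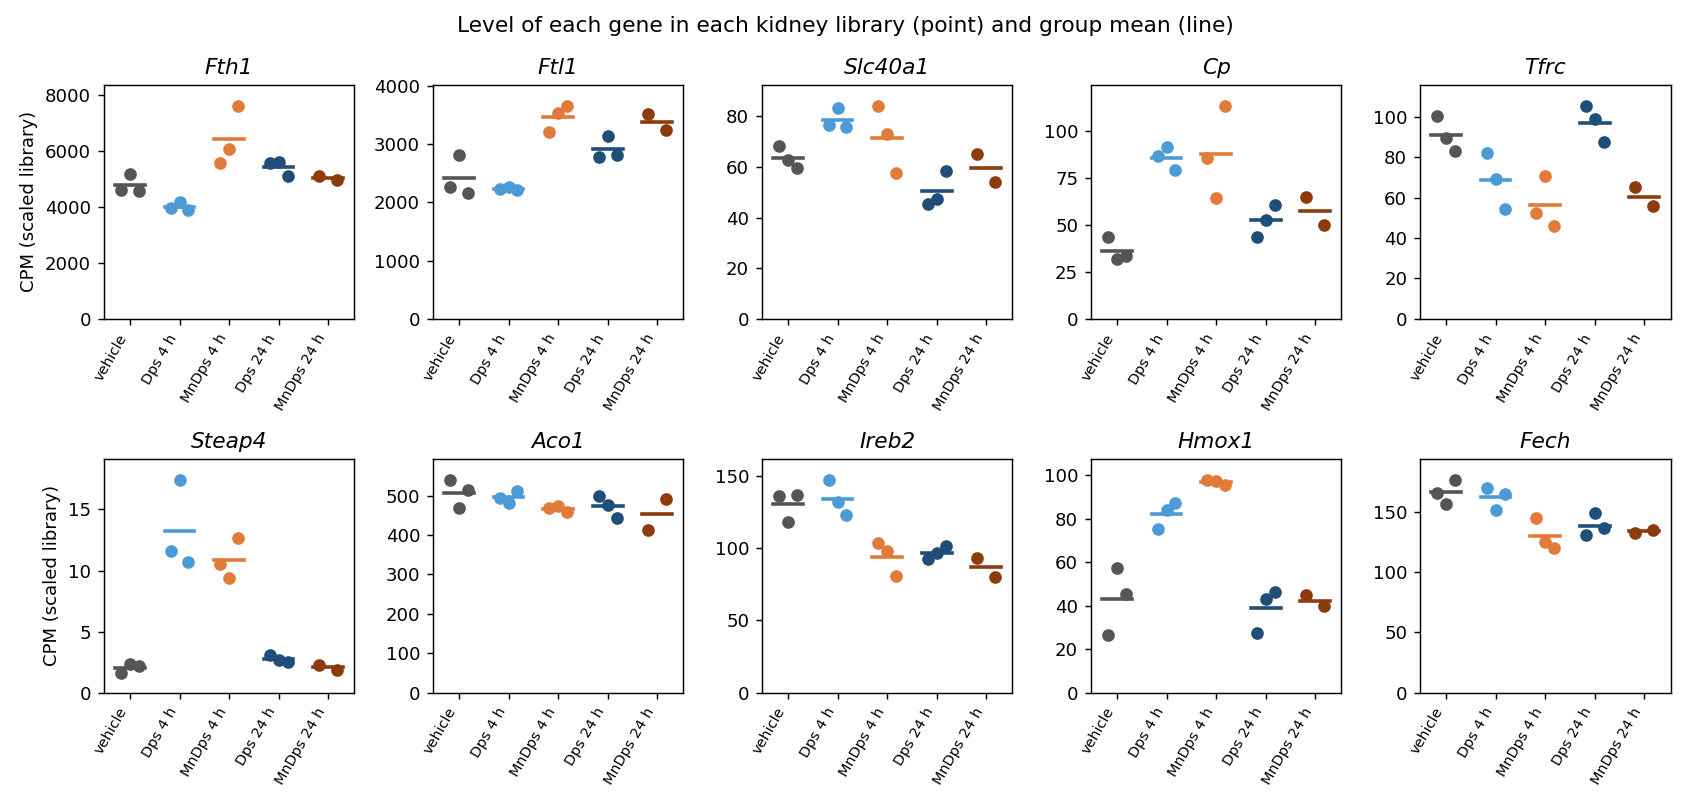
Levels of the 10 genes in CPM of the scaled library (vertical axes, each from 0) in the 14 libraries, by group (horizontal axes); points are libraries and lines are group means. All 6 libraries at 4 h lie above all 3 vehicle libraries for Steap4, Cp and Hmox1, while Aco1 overlaps vehicle in every group.

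By comparison, 3 members were called higher and 0 lower for Dps at 4 h against vehicle (edgeR's quasi-likelihood test, adjusted p under 0.05), beside 8.33% of all tested genes called higher and 6.27% lower. The members' median log2 fold change was 0.00 and that of all tested genes -0.02. For MnDps at 4 h the numbers were 5 higher and 3 lower, beside 22.9% and 22.7%, with medians of 0.30 and 0.00. For Dps at 24 h they were 0 higher and 2 lower, beside 9.64% and 10.4%, with medians of 0.00 and 0.00. For MnDps at 24 h they were 1 higher and 3 lower, beside 4.93% and 8.39%, with medians of -0.06 and 0.02. The 4 comparisons share the 3 vehicle libraries and are not independent of each other.

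Fold changes followed transcript length across all tested genes in most comparisons, and several members are unusually short or long. By the principal transcript, the ferritin messages are the shortest here (929 bases for Fth1 and 968 for Ftl1). Tfrc (4890), Ireb2 (5770) and Fech (6571) are the longest. The longest transcript of Fth1 has 2062 bases. Spearman's rho was taken between log2 fold change and longest-transcript length, across genes, which are not independent replicates. It was 0.17 for Dps at 4 h, -0.47 for MnDps at 4 h, -0.51 for Dps at 24 h and -0.34 for MnDps at 24 h. Between MnDps and Dps it was -0.62 at 4 h. The tests were therefore repeated with each library's trend on length and GC content as an offset, once from the longest transcript of each gene and once from its principal transcript; the second was chosen after seeing the data. The values are given beside the results whose call they change.

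**Figure D2:**
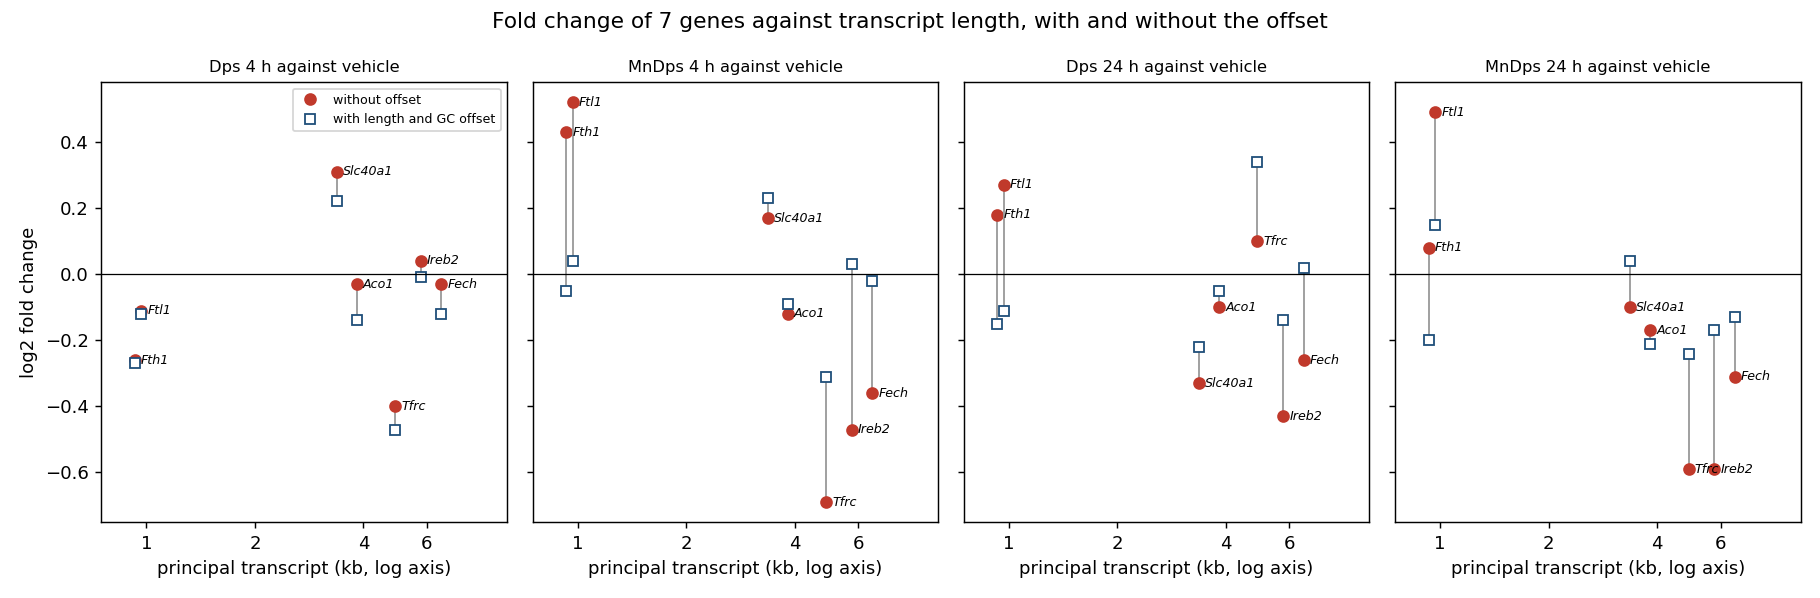
Log2 fold change (vertical axis) against the length of the principal transcript in kilobases (horizontal axis, log scale) for 7 of the 10 genes in the 4 comparisons with vehicle; filled circles are without the offset and open squares with the offset from principal transcripts. For MnDps at 4 h, Ftl1 moves from 0.52 to 0.04 and Fth1 from 0.43 to -0.05 at the short end, and Ireb2 from -0.47 to 0.03 and Fech from -0.36 to -0.02 at the long end.

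Among storage genes, Fth1 encodes the ferritin chain that oxidises iron. Its gene lies at chr19:9980598-9985098 (plus strand, GRCm38). The vehicle libraries, in the order of replicates 1 to 3, held 4628, 5172 and 4567 CPM, the Dps libraries at 4 h 3975, 4168 and 3892, and the MnDps libraries at 4 h 5587, 6095 and 7615. The order was thus Dps below vehicle below MnDps, with no overlap between any pair of these groups. The log2 fold change against vehicle was 0.43 ± 0.10 for MnDps (adjusted p = 0.00226) and -0.26 ± 0.10 for Dps (adjusted p = 0.0878). At 24 h the libraries held 5581, 5621 and 5130 CPM after Dps and 5131 and 4980.0 after MnDps. Both 24 h groups overlapped vehicle, and neither was called (0.18 ± 0.10, adjusted p = 0.186, and 0.08 ± 0.11, adjusted p = 0.662). With the offset, the rise with MnDps at 4 h became 0.17 (adjusted p = 0.0834) by the longest and -0.05 (adjusted p = 0.443) by the principal transcript. The lower value after Dps at 4 h became a call, at -0.31 (adjusted p = 0.00713) and -0.27 (adjusted p = 0.00165). The summed proximal tubule markers stood in the same order at 4 h, without overlap: 45653 to 51358 CPM after Dps, 52315 to 55264 in vehicle and 58376 to 71350 after MnDps. At 24 h they summed to 53136 to 66430 after Dps and 48443 to 56047 after MnDps. Of the 10 markers, 0 were called higher and 3 lower after Dps at 4 h, beside 8.33% and 6.27% of all tested genes. After MnDps at 4 h 1 was higher and 6 lower, beside 22.9% and 22.7%. The markers' median log2 fold changes were -0.19 and -0.32, so most markers did not share the higher sum after MnDps. Their part in the ferritin values was not tested.

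Ftl1 encodes the light chain, which promotes the mineral core of ferritin, and lies at chr7:45457944-45459884 (minus strand). Vehicle libraries held 2269, 2815 and 2166 CPM, Dps libraries at 4 h 2221, 2257 and 2217, and MnDps libraries at 4 h 3207, 3537 and 3647. All 3 MnDps libraries exceeded all others of these groups, and the Dps libraries lay inside the vehicle range. The log2 fold change was 0.52 ± 0.09 for MnDps at 4 h (adjusted p = 0.000409) and -0.11 ± 0.09 for Dps at 4 h (adjusted p = 0.438). At 24 h the levels were 2778, 3134 and 2815 CPM after Dps and 3521 and 3246 after MnDps. Both MnDps libraries at 24 h lay above all vehicle libraries and passed the test (0.49 ± 0.10, adjusted p = 0.00789), while Dps overlapped vehicle (0.27 ± 0.09, adjusted p = 0.0519). Without replicate 1 of MnDps at 24 h that call was lost (0.42, adjusted p = 0.097), and without vehicle replicate 2 the Dps value at 24 h was called (0.38, adjusted p = 0.00715). DESeq2 (0.27, adjusted p = 0.028) and limma voom (0.32, adjusted p = 0.00854) also called the Dps value. With the offsets the MnDps values fell to 0.03 and 0.04 at 4 h and to 0.17 and 0.15 at 24 h, none of them called. The exons of Ftl1 overlap the annotated genes Gm10252 and Gm22133, and ferritin genes have processed copies in the genome. The ferritin counts are uncertain to that extent, since the handling of reads with several matches is not given in the sources used here.

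On the uptake side, Tfrc encodes the receptor that brings transferrin into the cell (chr16:32608920-32632794, plus strand). Vehicle libraries held 101, 89.4 and 83.0 CPM, Dps libraries at 4 h 82.2, 69.0 and 54.2, and MnDps libraries at 4 h 52.4, 70.6 and 46.2. Every 4 h library lay below every vehicle library, the nearest pair being 82.2 and 83.0 CPM. The log2 fold change was -0.69 ± 0.16 for MnDps (adjusted p = 0.00376) and -0.40 ± 0.16 for Dps, which was not called (adjusted p = 0.11). The offsets moved the MnDps value to -0.40 (adjusted p = 0.0466) and -0.31 (adjusted p = 0.117), and the Dps value to -0.45 (adjusted p = 0.0358) and -0.47 (adjusted p = 0.0313). At 24 h the Dps libraries were back in and above the vehicle range, at 105, 98.7 and 87.3 CPM (0.10 ± 0.16, adjusted p = 0.708). The MnDps libraries at 24 h, at 65.4 and 55.7 CPM, stayed below it (-0.59 ± 0.18, adjusted p = 0.0496). This last call was lost on leaving out any 1 of its 5 libraries and with either offset (-0.30, adjusted p = 0.278, and -0.24, adjusted p = 0.414).

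Steap4 encodes a membrane reductase for iron and copper that is found in endosomes and at the cell surface, and lies at chr5:7960457-7982213 (plus strand). It was the least abundant member in vehicle, at 1.59, 2.35 and 2.21 CPM. It reached 11.6, 17.4 and 10.7 CPM at 4 h after Dps and 10.5, 9.36 and 12.7 after MnDps. The lowest 4 h library was thus well above the highest vehicle library. The log2 fold change was 2.69 ± 0.21 after Dps (adjusted p = 1.1e-07) and 2.39 ± 0.21 after MnDps (adjusted p = 4.7e-07), and both calls held under all alternatives run. By 24 h the levels were 3.10, 2.64 and 2.49 CPM after Dps, each just above the vehicle range, and 2.27 and 1.88 after MnDps, inside it. Neither differed by the test (0.40 ± 0.24, adjusted p = 0.235, and -0.01 ± 0.27, adjusted p = 0.986).

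The Steap4 promoter is shown as that of the member with the largest rise. The stretch below covers bases -250 to -101 before the RefSeq start (chr5:7960222-7960371, plus strand, GRCm38.p6), with motif matches in capitals.
Steap4 promoter: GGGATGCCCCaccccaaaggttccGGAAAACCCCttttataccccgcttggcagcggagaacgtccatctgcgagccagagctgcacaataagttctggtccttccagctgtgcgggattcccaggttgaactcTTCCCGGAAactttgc
Both strands of the 250 bases before each start were searched. The NF-kB motif matched at -250 and -226, and the GAS motif TTCNNNGAA, the letters read by STAT factors, matched at -116, with no overlap between them. Among 32851 promoter windows of the same length, 7.25% held the NF-kB motif and 7.02% the GAS motif. The other motifs searched were ISRE, read by interferon factors (2.98% of windows), the hypoxia core ACGTG (16.6%) and the antioxidant element TGACNNNGC (10.2%), none of which matched in Steap4. Of the 10 members, 7 had a RefSeq promoter entry that was searched, and Fech was left out of this search. The windows of Cp, Fth1, Aco1 and Ireb2 held no match, Ftl1 held an NF-kB match at -15, and 1 of the 2 Tfrc windows held ACGTG at -228. These matches describe letters and were not tested as sites.

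On the export side, Slc40a1 encodes ferroportin, the only known iron exporter of mammalian cells (chr1:45908068-45926523, minus strand). Vehicle libraries held 68.4, 62.8 and 59.4 CPM, Dps libraries at 4 h 76.5, 83.3 and 75.5, and MnDps libraries at 4 h 83.9, 72.8 and 57.7. The Dps libraries all lay above vehicle, and the MnDps libraries straddled it because replicate 3 was lowest. Neither was called (0.31 ± 0.12, adjusted p = 0.108, and 0.17 ± 0.12, adjusted p = 0.268), though the MnDps value was called without that replicate (0.30, adjusted p = 0.0421) and with the offset from the longest transcript (0.26, adjusted p = 0.0487; 0.23, adjusted p = 0.0802, with the principal one), and the Dps value in a fit of the compared groups alone (0.32, adjusted p = 0.0262). At 24 h the Dps libraries, at 45.5, 47.4 and 58.2 CPM, all lay below vehicle without a call (-0.33 ± 0.13, adjusted p = 0.0702), and leaving out replicate 3 gave one (-0.46, adjusted p = 0.0279), as did a fit of the compared groups alone (adjusted p = 0.0338) and limma voom (adjusted p = 0.0249). The MnDps libraries at 24 h, at 65.2 and 53.9 CPM, overlapped vehicle (-0.10 ± 0.14, adjusted p = 0.683).

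Cp encodes ceruloplasmin, the copper-bearing oxidase that loads iron onto transferrin (chr3:19957054-20009145, plus strand). Vehicle libraries held 43.7, 31.9 and 33.3 CPM. At 4 h they held 86.8, 91.8 and 79.2 CPM after Dps and 85.5, 64.5 and 113 after MnDps, all above vehicle. The log2 fold change was 1.25 ± 0.19 after Dps (adjusted p = 0.000732) and 1.27 ± 0.19 after MnDps (adjusted p = 0.000272), and both calls held under all alternatives run. At 24 h every library still lay above every vehicle library, at 43.9, 52.8 and 60.8 CPM after Dps and 64.7 and 50.1 after MnDps, the nearest pair being 43.9 and 43.7. The test was not passed (0.54 ± 0.20, adjusted p = 0.07, and 0.66 ± 0.22, adjusted p = 0.0609). DESeq2, limma voom and a fit of the compared groups alone called both 24 h values (adjusted p = 0.0195, 0.0346 and 0.0257 for Dps and 0.0121, 0.0388 and 0.0287 for MnDps), and the MnDps value was also called without vehicle replicate 1 (0.80, adjusted p = 0.0497). With the offset from the longest transcript the MnDps value was called at 0.87 (adjusted p = 0.0497), and with that from the principal transcript it was 0.87 without a call (adjusted p = 0.0554). Cp shares 108 exonic bases with Hps3 on the other strand, and the strand setting of the counting is not given in the sources used here. Liver is the main known source of plasma ceruloplasmin. The 6 hepatocyte markers summed to 108 to 193 CPM in vehicle, 107 to 173 after Dps at 4 h and 223 to 270 after MnDps at 4 h. At 4 h 0 and 3 of them were called higher, beside 8.33% and 22.9% of all tested genes. At 24 h the markers summed to 139 to 159 CPM after Dps and 67.8 to 118 after MnDps. None was called, beside 9.64% and 4.93% of all tested genes higher and 10.4% and 8.39% lower. Their part in the Cp values was not tested.

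The iron regulatory protein genes differed from each other. Aco1, whose product is also the cytosolic aconitase (chr4:40143081-40198338, plus strand), held 540, 470 and 514 CPM in vehicle and between 413 and 512 CPM in the 11 treated libraries. All 4 treated groups overlapped vehicle, and no comparison called it, with log2 fold changes from -0.17 ± 0.09 (MnDps at 24 h, adjusted p = 0.224) to -0.03 ± 0.08 (Dps at 4 h, adjusted p = 0.821). Ireb2 encodes the partner protein that is degraded when iron is plentiful (chr9:54863789-54912530, plus strand). It held 136, 118 and 136 CPM in vehicle and 147, 132 and 123 after Dps at 4 h, with no call (0.04 ± 0.10, adjusted p = 0.823). In the other 3 groups all libraries lay below all vehicle libraries, at 103, 97.9 and 80.9 CPM after MnDps at 4 h, 92.0, 96.6 and 101 after Dps at 24 h and 93.0 and 80.2 after MnDps at 24 h. These 3 falls were called (-0.47 ± 0.10, adjusted p = 0.00135; -0.43 ± 0.10, adjusted p = 0.00911; -0.59 ± 0.11, adjusted p = 0.00471). With the offsets the 3 values became -0.05 and 0.03, -0.18 and -0.14, and -0.23 and -0.17, of which only -0.23 (longest transcript, MnDps at 24 h) was called (adjusted p = 0.0442). The Dps call at 24 h was also lost without vehicle replicate 3 (-0.39, adjusted p = 0.0522) and the MnDps call at 24 h without its replicate 2 (-0.49, adjusted p = 0.0682).

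Of the heme genes, Fech encodes the enzyme that places iron into protoporphyrin, the last step of heme synthesis. Vehicle libraries held 166, 156 and 177 CPM, and Dps libraries at 4 h held 170.4, 152 and 165, overlapping vehicle (-0.03 ± 0.08, adjusted p = 0.83). The other 3 groups lay wholly below vehicle, at 145, 125 and 120.0 CPM after MnDps at 4 h, 131, 149 and 137 after Dps at 24 h and 133 and 136 after MnDps at 24 h. The falls were small but called, at -0.36 ± 0.08 (adjusted p = 0.00277), -0.26 ± 0.08 (adjusted p = 0.0384) and -0.31 ± 0.09 (adjusted p = 0.0401). With the offset from principal transcripts they became -0.02, 0.02 and -0.13, and with that from the longest -0.04, 0.00 and -0.15, none of them called. Without replicate 1 or 3 of Dps at 24 h, or vehicle replicate 1 or 3, the Dps call at 24 h was lost, and without either MnDps library at 24 h, or vehicle replicate 1 or 3, the MnDps call was lost.

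Hmox1 encodes the inducible heme oxygenase, which splits heme into iron, carbon monoxide and biliverdin (chr8:75093621-75100589, plus strand). The vehicle libraries were widely spread, at 26.6, 57.2 and 45.2 CPM. All 4 h libraries lay above them, at 75.1, 84.0 and 87.0 CPM after Dps and 97.7, 97.3 and 95.5 after MnDps. The log2 fold change was 1.17 ± 0.23 after MnDps (adjusted p = 0.00193) and 0.93 ± 0.23 after Dps (adjusted p = 0.0204). The Dps call was lost without its replicate 2 (0.92, adjusted p = 0.0586) or 3 (0.90, adjusted p = 0.0589), without vehicle replicate 3 (0.97, adjusted p = 0.0536) and in a fit of the compared groups alone (0.94, adjusted p = 0.0761). With the offsets Hmox1 stayed called after MnDps (0.80 and 0.87, adjusted p = 0.0228 and 0.0169) and after Dps (0.89 and 0.88, adjusted p = 0.0216 and 0.0224). At 24 h the libraries were back in the vehicle range, at 27.2, 43.1 and 46.3 CPM after Dps and 44.7 and 39.6 after MnDps, without a call (-0.14 ± 0.24, adjusted p = 0.703, and -0.03 ± 0.27, adjusted p = 0.951).

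Macrophages recycle heme iron and are rich in Hmox1 and Slc40a1, so their markers are given beside these genes. The 10 listed markers summed to 121 to 148 CPM in vehicle, 96.5 to 108 after Dps at 4 h, 96.2 to 105 after MnDps at 4 h, 181 to 196 after Dps at 24 h and 183 to 191 after MnDps at 24 h. Of the 7 tested, 3 and 4 were called lower at 4 h after Dps and MnDps, beside 6.27% and 22.7% of all tested genes. At 24 h 5 and 4 were called higher, beside 9.64% and 4.93%. The sums overlapped between the proteins at 4 h. For MnDps against Dps at 4 h, 2 of the 7 were called higher and 0 lower, beside 20.8% and 20.7% of all tested genes. The red cell and erythroid markers, of which 7 of 8 were in the table and 2 were tested, summed to 43.9 to 51.3 CPM in vehicle, 33.7 to 42.6 and 28.0 to 36.2 at 4 h and 40.8 to 52.1 and 51.4 to 95.6 at 24 h (Dps, then MnDps), with the globin genes Hba-a1, Hba-a2, Hbb-bs and Hbb-bt at 0 counts in every library. The part of these cells in the member values was not tested.

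The direct comparison of the proteins shows where MnDps and Dps differed at the same dose and time. At 4 h, 2 members were higher after MnDps and 2 lower, beside 20.8% and 20.7% of all tested genes, with a median of -0.11 and of -0.01 for all genes. Fth1 differed by 1.60-fold (0.68 ± 0.10, adjusted p = 1.0e-04) and Ftl1 by 1.55-fold (0.63 ± 0.09, adjusted p = 0.000117), and every MnDps library exceeded every Dps library for both. The offset left Fth1 called at 0.48 (adjusted p = 0.000361) by the longest and 0.22 (adjusted p = 0.00718) by the principal transcript, while Ftl1 became 0.15 in both and was not called (adjusted p = 0.136 and 0.132). Ireb2 (-0.51 ± 0.10, adjusted p = 0.000778) and Fech (-0.32 ± 0.08, adjusted p = 0.00568) were lower after MnDps, but with the offsets Ireb2 became -0.05 (longest) and 0.04 (principal) and Fech 0.07 and 0.10, none of them called. Steap4 (-0.30 ± 0.18, adjusted p = 0.201), Cp (0.03 ± 0.19, adjusted p = 0.923) and Hmox1 (0.24 ± 0.23, adjusted p = 0.434) did not pass the test between the proteins, which does not show that the proteins acted alike. Hmox1 was called in a fit of the compared groups alone (0.24, adjusted p = 0.0323). Tfrc was not called (-0.28 ± 0.16, adjusted p = 0.179), but was without replicate 3 of Dps at 4 h (-0.43, adjusted p = 0.0413) or replicate 2 of MnDps at 4 h (-0.49, adjusted p = 0.0186).

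At 24 h, 0 of the 10 members were called between MnDps and Dps with edgeR, beside 0.148% of tested genes higher and 0.666% lower, with a median of -0.06 and of 0.00 for all genes. At an unadjusted p under 0.05 there was 1 member, Tfrc. It held 87.3 to 105 CPM after Dps and 55.7 to 65.4 after MnDps, without overlap (-0.68 ± 0.18, adjusted p = 0.095). Tfrc was called in a fit of the compared groups alone (adjusted p = 0.00207), by DESeq2 (adjusted p = 0.0102) and by limma voom (adjusted p = 0.0426). Each of these called 1 member, beside 5.07%, 4.55% and 4.82% of the genes given an adjusted p. The other 9 members ranged from -0.41 ± 0.27 for Steap4 (adjusted p = 0.472) to 0.24 ± 0.14 for Slc40a1 (adjusted p = 0.421).

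**Figure D3:**
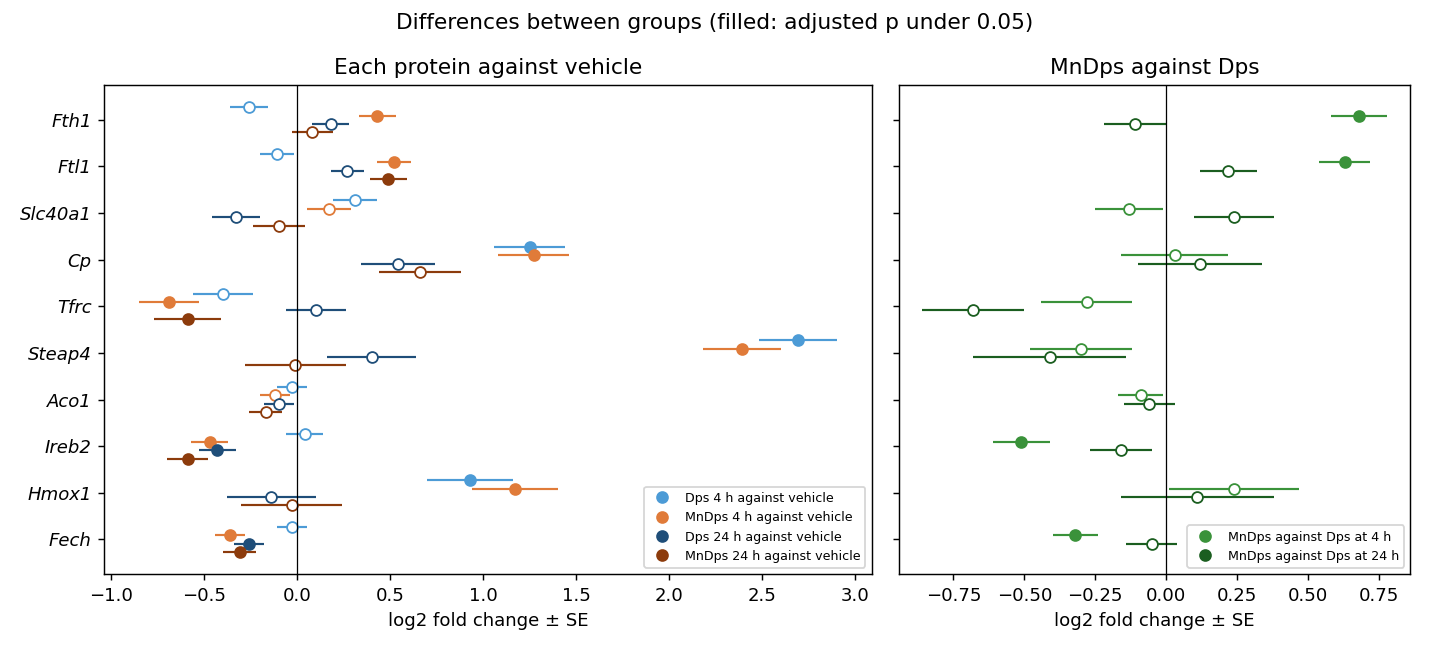
Log2 fold change ± SE (horizontal axes) of the 10 genes (vertical axis) for each protein and time against vehicle (left) and for MnDps against Dps (right); filled points have an adjusted p under 0.05. Steap4 (2.69 and 2.39), Cp (1.25 and 1.27) and Hmox1 (0.93 and 1.17) stand farthest to the right at 4 h; with the offset from principal transcripts, the filled points of Fth1 and Ireb2 for MnDps at 4 h, of Fech for Dps at 24 h and of Fech and Ireb2 for MnDps against Dps at 4 h change sign.

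Time courses within each protein compare the means of the 2 times without vehicle. The vehicle libraries still entered the shared fit, its scaling and its spread estimate. After Dps, 3 members were higher and 6 lower at 24 h than at 4 h, beside 22% and 22.6% of all tested genes, with medians of -0.35 and -0.01. Steap4 fell by 2.28 ± 0.21 on the log2 scale (adjusted p = 5.9e-07), Hmox1 by 1.07 ± 0.24 (adjusted p = 0.0033), Cp by 0.71 ± 0.19 (adjusted p = 0.00907), Slc40a1 by 0.64 ± 0.12 (adjusted p = 0.000753), Ireb2 by 0.47 ± 0.10 (adjusted p = 0.00131) and Fech by 0.23 ± 0.08 (adjusted p = 0.0367). The exporter Slc40a1 showed no overlap between the times, with 75.5 to 83.3 CPM at 4 h and 45.5 to 58.2 at 24 h, and kept the call with both offsets (-0.48, adjusted p = 0.00144, and -0.45, adjusted p = 0.00253). Fth1 (0.44 ± 0.10, adjusted p = 0.00176), Ftl1 (0.38 ± 0.09, adjusted p = 0.0035) and Tfrc (0.50 ± 0.16, adjusted p = 0.0217) rose. With the offsets from the longest and the principal transcript, Ftl1 became 0.02 and 0.00, Cp -0.50 and -0.47 (adjusted p = 0.0835 and 0.108) and Fech 0.11 and 0.14, all without a call. Fth1 and Ireb2 stayed called by the longest transcript (0.37, adjusted p = 0.00125, and -0.18, adjusted p = 0.0215) and not by the principal one (0.12, adjusted p = 0.0741, and -0.13, adjusted p = 0.103). Tfrc became 0.74 (adjusted p = 0.00149) and 0.81 (adjusted p = 0.000966), but without an offset its call was lost on leaving out replicate 2 (0.49) or 3 (0.35) of Dps at 4 h, or replicate 1 (0.44) or 2 (0.49) of Dps at 24 h. The Fech call was lost on leaving out replicate 1 or 3 of either time.

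After MnDps, 0 members were higher and 3 lower at 24 h than at 4 h, beside 10.1% and 11.7% of all tested genes, with medians of -0.19 and -0.01. These were Steap4 (-2.40 ± 0.25, adjusted p = 6.8e-06), Hmox1 (-1.20 ± 0.27, adjusted p = 0.00906) and Fth1 (-0.35 ± 0.11, adjusted p = 0.0322). The Hmox1 call was lost without replicate 2 of MnDps at 24 h (-1.12, adjusted p = 0.0883). The Fth1 call was lost without replicate 3 of MnDps at 4 h (-0.21), without replicate 1 (-0.38) or 2 (-0.33) of MnDps at 24 h, and with both offsets (-0.22 and -0.15). Cp was lower without a call (-0.61 ± 0.22, adjusted p = 0.0602), and so was Slc40a1 (-0.27 ± 0.14, adjusted p = 0.181). Cp was called without replicate 2 of MnDps at 4 h (-0.79, adjusted p = 0.0111) and Slc40a1 without replicate 3 of that group (-0.41, adjusted p = 0.0292). Ireb2, at -0.12 ± 0.11 (adjusted p = 0.467), was -0.19 (adjusted p = 0.059) and -0.20 (adjusted p = 0.0443) with the offsets, the last a call.

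The change from 4 h to 24 h differed between the proteins for Fth1, and for Ftl1 in the main fit but not with the offsets. The interaction of protein and time, added after seeing the data, was called for 2 members, both lower, beside 13.7% of all tested genes higher and 15.7% lower. Fth1 rose by 0.44 after Dps and fell by 0.35 after MnDps, a difference of -0.79 ± 0.15 (adjusted p = 0.00121), which held with the offsets (-0.59, adjusted p = 0.00276, and -0.27, adjusted p = 0.0287). Ftl1 gave -0.42 ± 0.14 (adjusted p = 0.0339), and the offsets reversed it to 0.12 and 0.11 (adjusted p = 0.511 and 0.525). The other 8 members were not called, Ireb2 being nearest at 0.35 ± 0.15 (adjusted p = 0.0885).

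Of the other genes of iron and heme handling listed by role, 47 could be tested. For Dps at 4 h, 4 were higher and 3 lower, beside 8.33% and 6.27% of all tested genes. For MnDps at 4 h they were 14 and 11, beside 22.9% and 22.7%, for Dps at 24 h 7 and 5, beside 9.64% and 10.4%, and for MnDps at 24 h 4 and 6, beside 4.93% and 8.39%. The medians were -0.06, 0.00, 0.05 and 0.05. With the offset from principal transcripts the counts became 5 and 12, 6 and 14, 2 and 2, and 0 and 6, where 25.7%, 37.7%, 8.9% and 7.09% of all tested genes were called in either direction. For MnDps at 24 h they were 0 and 2 without replicate 1 of that group (all genes 1.97%), 1 and 1 without replicate 2 (4.03%), 0 and 5 without vehicle replicate 1 (8.21%) and 1 and 3 without vehicle replicate 3 (5.27%). For Dps at 24 h they were 2 and 1 without vehicle replicate 3 (5.71%), 3 and 3 without vehicle replicate 1 (13.4%), 3 and 3 without replicate 1 of Dps at 24 h (11.9%) and 2 and 3 without its replicate 2 (8.02%). For Dps at 4 h, leaving out any 1 Dps library left 1 gene lower in place of 3 (9.72% to 10.5%). For MnDps at 4 h, leaving out vehicle replicate 3 left 11 and 6 (33.6%).

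The largest rises among these genes were those of Hp and Lcn2. Hp encodes haptoglobin, which binds free hemoglobin, and went from 1.71 ± 1.82 CPM (SD, n = 3) in vehicle to 47.0 ± 13.6 after Dps at 4 h and 52.1 ± 11.5 after MnDps at 4 h (log2 fold changes 4.91 ± 0.69 and 5.06 ± 0.69, adjusted p = 0.000949 and 0.000329). Lcn2 encodes lipocalin 2, which binds bacterial iron carriers, and went from 3.57 ± 1.06 to 43.4 ± 13.4 and 75.3 ± 48.0 CPM (3.66 ± 0.58 and 4.46 ± 0.58, adjusted p = 0.00195 and 0.000245). All 4 calls held under all alternatives run. Neutrophil markers moved with them: the 7 in the table, of 8 listed, summed to 0.459 to 1.26 CPM in vehicle, 4.61 to 7.08 after Dps at 4 h, 10.03 to 17.2 after MnDps at 4 h, 1.39 to 2.53 after Dps at 24 h and 1.26 to 1.35 after MnDps at 24 h. Their 3 tested markers were all called higher at 4 h after both proteins, beside 8.33% (Dps) and 22.9% (MnDps) of all tested genes. Elane was at 0 counts in every library, and the part of neutrophils in Hp and Lcn2 was not tested.

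In iron uptake, Slc11a2, which encodes the divalent metal transporter, rose from 109 ± 4.88 to 150.2 ± 6.60 CPM after Dps at 4 h (0.46 ± 0.10, adjusted p = 0.00369). Steap1, a relative of Steap4, rose after MnDps at 4 h from 3.28 ± 0.647 to 7.27 ± 2.29 CPM (1.16 ± 0.25, adjusted p = 0.00145). Of the 12 tested uptake genes, 2 rose and 1 fell after Dps at 4 h, beside 8.33% and 6.27% of all tested genes, and 2 rose and 2 fell after MnDps at 4 h, beside 22.9% and 22.7%. Slc22a17, which encodes a lipocalin 2 receptor, was the 1 that fell after Dps (-0.28 ± 0.08, adjusted p = 0.0287), a call lost without replicate 1 or 2 of Dps at 4 h or vehicle replicate 2 or 3. Steap2, another relative, fell after Dps at 24 h (-0.38 ± 0.09, adjusted p = 0.0106), which became -0.01 with the offset from the longest transcript.

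In the hepcidin axis, Bmp6, the signal by which iron raises hepcidin in liver, rose after Dps at 4 h from 39.2 ± 4.26 to 60.8 ± 3.32 CPM (0.63 ± 0.11, adjusted p = 0.000569). It was 1 of 5 tested genes of export and the hepcidin axis to rise there, with 0 lower, beside 8.33% and 6.27% of all tested genes. Of the storage genes, Ncoa4, which encodes the receptor that delivers ferritin for breakdown, held 59.2 ± 10.2 CPM in vehicle and fell to 38.7 ± 7.63 after Dps at 24 h (-0.61 ± 0.17, adjusted p = 0.0217) and 38.1 ± 1.61 (SD, n = 2) after MnDps at 24 h (-0.64 ± 0.19, adjusted p = 0.0415). Both Ncoa4 calls were lost with the offsets, between -0.46 and -0.52, on leaving out replicate 1 or 2 of the treated group and on leaving out vehicle replicate 1 or 3. Among the sensing genes, Epas1, the hypoxia factor whose message also carries an IRE, fell after MnDps at 4 h from 130 to 85.0 CPM (-0.62 ± 0.10, adjusted p = 0.000261).

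In heme synthesis, Cpox, the coproporphyrinogen oxidase gene, held 123 ± 6.72 CPM in vehicle and fell to 65.4 ± 11.6 after MnDps at 4 h (-0.91 ± 0.12, adjusted p = 2.5e-05), 89.99 ± 8.71 after Dps at 24 h (-0.45 ± 0.12, adjusted p = 0.0148) and 66.8 ± 4.09 (n = 2) after MnDps at 24 h (-0.88 ± 0.13, adjusted p = 0.00145). Both MnDps calls held under all alternatives run, and the Dps call was lost without replicate 1 of Dps at 24 h or vehicle replicate 3. Of the 8 tested genes of this group, Cpox was the only one called lower, with 3 called higher after MnDps at 4 h (22.9% of all tested genes), 2 after Dps at 24 h (9.64%) and 3 after MnDps at 24 h (4.93%). The latter were Alas2 (1.33 ± 0.34, adjusted p = 0.0257), the erythroid form of the first enzyme, Alad (0.33 ± 0.10, adjusted p = 0.0398) and Urod (0.30 ± 0.08, adjusted p = 0.0209), none of which held with the offsets. Alas2 fell to 0.59 (adjusted p = 0.317) without replicate 1 of MnDps at 24 h, and red cell markers were highest in that group; their part in the Alas2 value was not tested. The Alas2 call was also lost without vehicle replicate 1, and those of Alad and Urod without either MnDps library at 24 h or vehicle replicate 1 or 3.

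Of the mitochondrial genes, Glrx5, which hands on iron-sulfur clusters, fell after Dps at 4 h (-0.36 ± 0.09, adjusted p = 0.0149). This call was lost without replicate 1 or 3 of that group or vehicle replicate 3. Vehicle libraries held 73.8 to 84.4 CPM of it, and every other treated group lay above that range. Those held 88.6 to 115 CPM (MnDps at 4 h), 97.9 to 104 (Dps at 24 h) and 85.3 to 92.0 (MnDps at 24 h). Among the 7 tested here, MnDps at 4 h gave 4 called rises and 1 fall (all genes 22.9% and 22.7%). Dps gave 0 and 1 at 4 h (8.33% and 6.27%) and 2 and 0 at 24 h (9.64% and 10.4%). MnDps at 24 h gave 0 and 1 (4.93% and 8.39%).

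In heme breakdown and transport, Bach1, the heme-sensing repressor of Hmox1, held 34.0 ± 2.57 CPM in vehicle and 36.6 ± 3.88 after Dps at 4 h. It fell to 23.5 ± 3.32 after MnDps at 4 h (-0.53 ± 0.11, adjusted p = 0.000903), 26.5 ± 0.767 after Dps at 24 h (-0.36 ± 0.11, adjusted p = 0.0257) and 22.1 ± 1.15 (n = 2) after MnDps at 24 h (-0.63 ± 0.12, adjusted p = 0.00502). The call for MnDps at 4 h held under all alternatives run, that for MnDps at 24 h was lost without its replicate 2, and that for Dps at 24 h was lost without any 1 Dps library or vehicle replicate 3 and with both offsets. Blvrb, a biliverdin reductase gene of the step after Hmox1, rose after Dps at 24 h from 17.9 ± 1.65 to 27.9 ± 2.73 CPM (0.64 ± 0.11, adjusted p = 0.00303) and after MnDps at 24 h (0.43 ± 0.13, adjusted p = 0.0358). With the offset from principal transcripts these became 0.27 and 0.10 without a call. The MnDps call was also lost with the offset from the longest transcript (0.18, adjusted p = 0.312) and without either of its libraries or vehicle replicate 1 or 3. Blvra, which encodes the main biliverdin reductase, rose after Dps at 24 h (0.40 ± 0.10, adjusted p = 0.0119) a call lost with both offsets and without replicate 1 or 2 of Dps at 24 h or vehicle replicate 3. Abcg2, an exporter of porphyrins and heme, fell after Dps at 4 h (-0.27 ± 0.07, adjusted p = 0.0146), a call lost without replicate 2 or 3 of that group. Hpx, which encodes the heme carrier hemopexin, rose after MnDps at 4 h from 0.453 to 1.38 CPM (1.62 ± 0.61, adjusted p = 0.042), a call lost without replicate 3 of MnDps at 4 h (0.75, adjusted p = 0.325) or any 1 vehicle library. Hp was still higher at 24 h after Dps, at 12.3 ± 4.79 CPM (2.97 ± 0.73, adjusted p = 0.0199), a call lost without replicate 1 or 2 of Dps at 24 h or vehicle replicate 1 or 3.

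**Figure D4:**
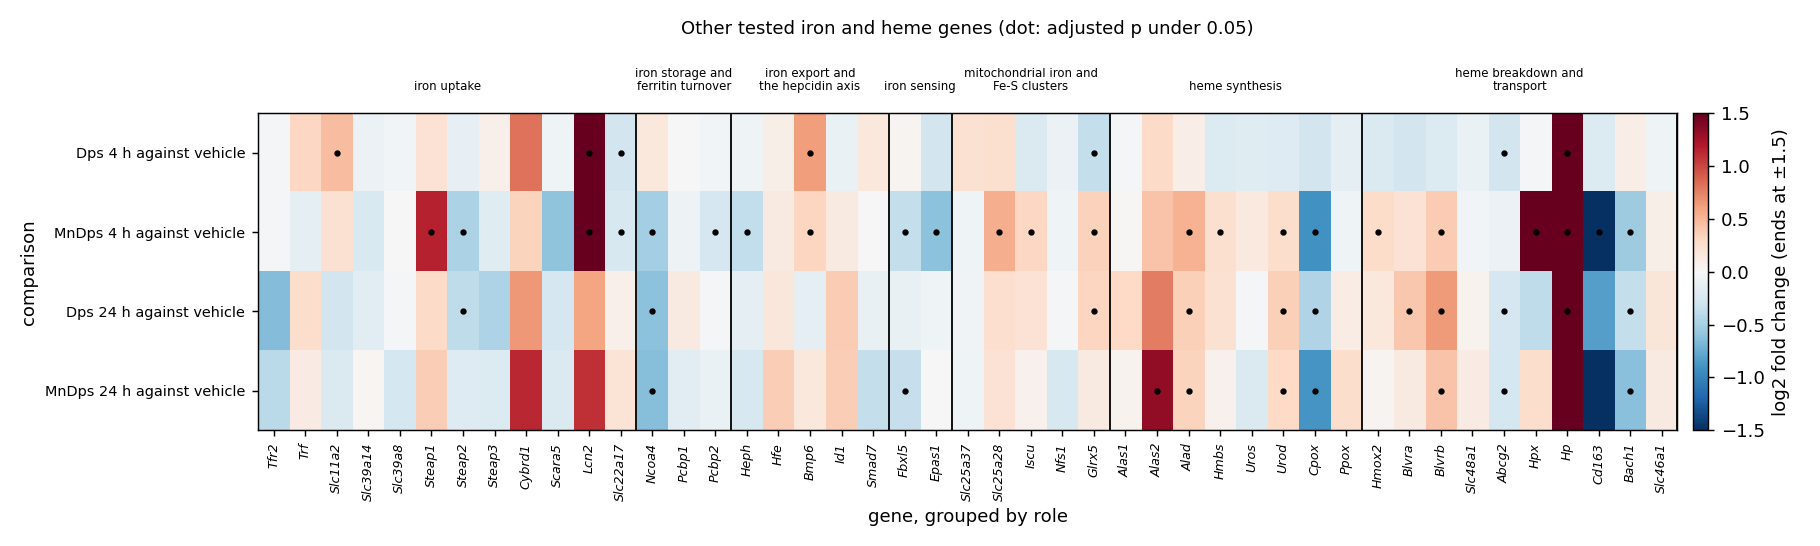
Log2 fold change (colour, ending at 1.5 either way) of 45 of the 47 other tested iron and heme genes (horizontal axis, grouped by role) in the 4 comparisons with vehicle (vertical axis); a dot marks an adjusted p under 0.05. Among the rises at 4 h, Hp and Lcn2 reach the darkest colour after both proteins and Hpx after MnDps. Cpox, called lower in 3 of the 4 rows, stands out among the heme synthesis genes.

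The genes whose 4 log2 fold changes against vehicle lay nearest to those of the strongest members were found among 13740 tested genes by the root mean square difference over the 4 comparisons, which share their controls. Nearest to Hmox1 were A4galt (0.06), Gadd45b (0.10) and 2810459M11Rik (0.11). Nearest to Steap4 were Dclk1 (0.05), Trim34a (0.09) and AI607873 (0.15). Nearest to Cp were Adora2a, 5031414D18Rik and Ankrd1 (0.10 each). This is a description of likeness over 4 values.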

How the data were processed

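Kidney RNA was sequenced with paired ends from stranded mRNA libraries, per the labels' protocols. STAR, featureCounts and the mm10 build are named in the submitters' processing notes. For versions, annotation, strand and multi-match settings the sources used here give nothing. The values deposited by the authors are unnormalized counts of reads for each gene symbol.

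Genes with low counts were removed with filterByExpr by group, which left 14854 of 24421. All 14 libraries entered a single edgeR model with 5 groups (edgeR 4.0.16, R 4.3.3), with TMM scaling and robust quasi-likelihood F-tests (9 residual degrees of freedom). The Benjamini-Hochberg adjustment ran over all tested genes, and an adjusted p under 0.05 was called. The SE is the log2 fold change divided by the square root of F. The biological coefficient of variation was 10.7%, and pairs of replicates differed beyond counting error (chi-square per degree of freedom 7.74 to 29.3). Length and GC content came from GENCODE M21 (GRCm38) for 99.4% of tested genes; the offset used a spline with 5 degrees of freedom. In simulated counts for Dps at 4 h against vehicle (14854 genes, 50 changed per fold), the test recovered 14% at 1.25-fold, 44% at 1.5-fold, 78% at 2-fold and 92% at 4-fold, with 8 false calls. The simulation changed far fewer genes than were called in the data (1237 higher and 931 lower) and held no length trend. These shares therefore do not give the recovery in the real comparison. Promoter windows are RefSeq's (GRCm38.p6).

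Members and lists were chosen with earlier results of these data known. All 10 members are named. Of 60 other listed symbols (3 pairs of which are older and newer names), 55 were in the table and 47 tested; the up to 4 largest called rises and falls per comparison with vehicle are named, where the higher group's mean reached 1 CPM and the libraries did not overlap; 2 of the 47 are not reported here by name. Marker lists not given in the report had these counts higher and lower against vehicle, in the order Dps and MnDps at 4 h, then Dps and MnDps at 24 h: proximal tubule 0 and 3, 1 and 6, 1 and 2, 0 and 0; distal segments 0 and 1, 1 and 4, 2 and 2, 2 and 2 of 8; podocyte 0 and 0, 0 and 3, 0 and 2, 0 and 2 of 4; endothelial 1 and 4, 0 and 4, 1 and 1, 2 and 0 of 6; adipocyte 3 and 0, 2 and 0, 1 and 0, 0 and 0 of 6. In the same order, 8.33% and 6.27%, 22.9% and 22.7%, 9.64% and 10.4%, and 4.93% and 8.39% of all tested genes were called. DESeq2 1.42.0, limma 3.58.1 (voom), other scalings and filters, a term for libraries over 30000000 counts, fits of the compared groups alone and leaving out each library were run as alternatives.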

Additional observations from a re-analysis of the deposited data

Results flagged for a closer look

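The difference between the proteins in the change from 4 h to 24 h passed the test of that difference for both ferritin chains. For Fth1 it was -0.79 ± 0.15 (edgeR interaction term, adjusted p = 0.00121): the level rose by 0.44 after Dps and fell by 0.35 after MnDps. For Ftl1 it was -0.42 ± 0.14 (adjusted p = 0.0339), with 0.38 after Dps and -0.03 after MnDps. The Ftl1 value turned to 0.12 and 0.11 with the length and GC offsets, and its call was also lost with the term for deep libraries (-0.34, adjusted p = 0.137) and on leaving out replicate 2 or 3 of MnDps at 4 h, either library of MnDps at 24 h, any library of Dps at 4 h, or replicate 2 of Dps at 24 h.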

How the results depend on the processing

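No paired analysis was possible because the labels give each library its own number and no replicate number shared across groups. Of 1210 single-gene values under alternatives (82 results, 35 of them called), 1032 kept direction and side of the threshold, 82 lost the call, 34 gained one and 62 changed sign, 10 of the last among called results.

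The number of members called was 3, 8, 2 and 4 against vehicle (Dps 4 h, MnDps 4 h, Dps 24 h, MnDps 24 h). It was 5, 5, 0 and 2 with the longest-transcript offset and 5, 3, 0 and 0 with the principal-transcript offset, where 25.4%, 38%, 9.75% and 7.72%, and 25.7%, 37.7%, 8.9% and 7.09%, of all tested genes were called. Between the proteins at 4 h, 4 became 1 with either offset (24.4% and 22.6% of all genes), and from 4 h to 24 h after Dps, 9 became 4 with the principal transcript (37.8%). The deep-library term gave 1 at Dps 24 h, 2 at MnDps 24 h and 5 for the Dps time course. There 11%, 6.95% and 28.4% of all tested genes were called. The compared groups alone gave 4 at Dps 24 h and 1 between proteins at 24 h, DESeq2 gave 4 and 1, and limma voom 6 and 1. At Dps 24 h these 3 fits called 21.7%, 26% and 29.8% of the genes given an adjusted p. Between proteins at 24 h they called 5.07%, 4.55% and 4.82%. The causes were not tested.

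Sign changes with the longest-transcript offset were Ftl1 -0.11 at Dps 24 h; Fth1 -0.05, Steap4 0.05 and Slc40a1 0.07 at MnDps 24 h; Hmox1 -0.09, Fech 0.07, Tfrc 0.06 and Slc40a1 0.01 between proteins at 4 h; Fech 0.11 and Aco1 0.03 in the Dps time course; Fech -0.10 and Ftl1 0.14 in the MnDps time course; and Ftl1 0.12 in the interaction. With the principal transcript they were Ireb2 -0.01 at Dps 4 h; Fth1 -0.05 and Ireb2 0.03 at MnDps 4 h; Fech 0.02, Fth1 -0.15 and Ftl1 -0.11 at Dps 24 h; Fth1 -0.20, Steap4 0.09 and Slc40a1 0.04 at MnDps 24 h; Hmox1 -0.02, Fech 0.10, Tfrc 0.16, Slc40a1 0.01, Aco1 0.05 and Ireb2 0.04 between proteins at 4 h; Fech 0.14 and Aco1 0.09 in the Dps time course; Fech -0.11 and Ftl1 0.12 in the MnDps time course; and Ftl1 0.11 in the interaction. The deep-library term gave Ireb2 -0.01 at Dps 4 h and Steap4 0.13 at MnDps 24 h. limma voom gave Hmox1 0.00 at MnDps 24 h, Cp -0.16 between proteins at 4 h and Tfrc 0.00 in the MnDps time course.

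On leaving out each library in turn, members called ran from 0 to 3 at Dps 24 h, where 5.71% to 23.7% of all tested genes were called. At most 3 were called at MnDps 24 h, with 2 without vehicle replicate 3, and at most 4 in the MnDps time course. Fewer were called at MnDps 24 h without either MnDps library of that time, where a lone library was left. The MnDps time course also had fewer without replicate 2 of MnDps at 24 h. Leaving out a vehicle library left 5.27% to 17.2% of all tested genes called at MnDps 24 h. Leaving out a MnDps library of 4 h left 18.4% to 21.5% called in the MnDps time course. Values that crossed zero were, at Dps 4 h, Fech -0.09 to 0.02, Aco1 -0.10 to 0.01 and Ireb2 -0.04 to 0.12; at Dps 24 h, Hmox1 -0.40 to 0.09; at MnDps 24 h, Hmox1 -0.29 to 0.20, Steap4 -0.15 to 0.13 and Slc40a1 -0.24 to 0.04; between proteins at 4 h, Cp -0.22 to 0.20; at 24 h, Hmox1 -0.09 to 0.26, Cp -0.08 to 0.30 and Aco1 -0.20 to 0.05; and in the MnDps time course, Fech -0.01 to 0.13, Ftl1 -0.10 to 0.02, Tfrc -0.03 to 0.30 and Aco1 -0.18 to 0.07. A lone MnDps library at 24 h is assumed to vary like the other groups. In simulated counts of Dps at 4 h, 14% of 1.25-fold changes were recovered; other comparisons and depths were not simulated.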
